A study of Drosophila melanogaster with 2 samples.

Results

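The core genes of the circadian clock were examined in open chromatin of the mushroom body (MB), the paired memory centre of the fly brain, whose intrinsic neurons are the Kenyon cells. The 10 genes, per, tim, cwo, Clk, cyc, vri, Pdp1, cry, dco and sgg, were taken by their Ensembl symbols from 13968 protein-coding genes, and not filtered by any value measured here. The list was, however, chosen with earlier results of these data known. The assay was ATAC-seq, in which a transposase cuts DNA that is not packed away, so that a peak marks an accessible region. Both samples were biological replicates of 1 group of naïve Drosophila melanogaster with the genotype w*;UAS-Unc84::2xGFP/+;R14H06-Gal4/+, and there was therefore no comparison between groups. According to the study's methods the flies were socially isolated males, heterozygous for both transgenes after a cross to a wild-type strain of mixed background. Each replicate was a pool of 50 to 60 heads, taken at a single point of the daily cycle, 1 h after the time at which courtship training would begin. The sample descriptions place this point 1 h before the light period, whereas the study writes of training as taking place during the day. The names inside the deposited peak lists carry the hour 11 AM, and how this hour lies in the light cycle is not stated in the sources used here. The light phase of the samples is therefore uncertain. Nuclei were tagged by a GFP fusion in the nuclear envelope under R14H06-Gal4, a driver built on an enhancer of the adenylyl cyclase gene rut (Adcy1) that labels Kenyon cells and, faintly, a few other cells, and were pulled from whole-head homogenate on antibody-coated beads.

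The fly clock is a feedback loop of transcription. The basic helix-loop-helix proteins CLOCK (CLK) and CYCLE (CYC) bind E-boxes together and drive per and tim, whose products return to the nucleus and repress CLK-CYC. CLK-CYC also drives cwo, which encodes a repressor that itself binds E-boxes, and the second loop of vri and Pdp1, whose products repress and activate Clk. The kinases encoded by dco (also called doubletime) and sgg (shaggy) set the stability and the entry into the nucleus of PER and TIM, and cry encodes the blue-light receptor that resets the loop. The canonical clock neurons of the fly brain are a small set of cells outside the MB, and Kenyon cells are not counted among them.

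All 10 clock genes had an accessible promoter in both replicates, as did 55.9% of all protein-coding genes. By fold enrichment over the local background, the strongest were those of cwo, Pdp1 and dco, which stood above more than 95% of the genes with a promoter peak in each replicate, and the weakest were those of the activators Clk and cyc, near the middle of all genes. The place of cyc rested on this measure, since by the height of the peak alone it stood above 83.6% of genes and the lowest were Clk (35.2) and tim (35.6). E-boxes lay within 100 bp of the summit in 9 regions that were accessible in both replicates, and 5 of these were in Pdp1. For such counts the summit was the mean of both replicates' summits, and with either replicate's summit alone the count was 8. The E-box was searched as the letters CACGTG, which read the same on both strands, and its surroundings are shown because the later results turn on where these letters lie. The capitals mark the E-box, the flanks are in lower case, each sequence reads 5′ to 3′ on the strand of its gene, and all are from RefSeq's Release 6 assembly, the dm6 build of the peaks. The tim sequence is shorter because its flanks run into an annotated untranslated region.
per promoter peak, chrX:2685020-2685085, plus strand: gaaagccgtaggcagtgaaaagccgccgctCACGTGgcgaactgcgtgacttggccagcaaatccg
tim second promoter peak, chr2L:3507405-3507434, minus strand: acgttgtgattaCACGTGagccgatttccc
vri intron peak, chr2L:5303322-5303387, plus strand: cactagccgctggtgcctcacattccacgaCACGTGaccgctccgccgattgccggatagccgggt
sgg second promoter peak, chrX:2636254-2636319, plus strand: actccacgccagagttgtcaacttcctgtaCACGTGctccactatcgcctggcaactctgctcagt
Pdp1 first promoter peak, chr3L:7867128-7867193, minus strand: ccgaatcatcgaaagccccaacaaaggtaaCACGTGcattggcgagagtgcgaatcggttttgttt
Pdp1 intron peak 30.2 kb in, chr3L:7837050-7837115, minus strand: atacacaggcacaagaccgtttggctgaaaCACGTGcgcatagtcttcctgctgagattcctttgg
Pdp1 intron peak 32.0 kb in, chr3L:7835229-7835294, minus strand: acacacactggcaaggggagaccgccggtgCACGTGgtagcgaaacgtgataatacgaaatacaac
Pdp1 intron peak 33.5 kb in, chr3L:7833799-7833864, minus strand: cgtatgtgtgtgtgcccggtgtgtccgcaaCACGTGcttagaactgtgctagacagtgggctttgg
Pdp1 intron peak 37.5 kb in, chr3L:7829790-7829855, minus strand: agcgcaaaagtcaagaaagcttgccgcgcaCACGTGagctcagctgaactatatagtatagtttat
Beyond the 6 searched letters no shared flank was sought. Of all consensus peaks, which are merged regions with a peak from each replicate, 4.34% (508 of 11705) held these letters within 100 bp of the summit.

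The 2 replicates had 13868 and 14583 peaks, with a median summit pileup of 219 and 216 fragments or cut sites, for which counting error alone is 6.76% and 6.80%. The strength of a peak is given as fold enrichment, the pileup at its summit over a background estimated around it in the same library. The TSS peak of a gene was its strongest peak within 500 bp of an annotated transcription start site (TSS), and its percentile is the percent of genes with a TSS peak in that replicate (7997 and 7995 genes) that were lower. The tissue label was set beside lists of marker genes. These lists were chosen with earlier results of these data known, and rut supplied the enhancer of the driver. They are therefore no independent check. All 10 Kenyon cell markers, among them ey, dac and rut, had a TSS peak in both replicates, at percentiles of 76.7 to 98.5. Of 7 genes that mark clock neurons, 2 had one in both replicates, disco at a percentile of 99.7 and CCHa1 at 29.0, and no TSS peak was called in either replicate at Pdf, ITP and NPF. Of 6 glial markers 2 had one in both, moody at a percentile of 40.6 and Eaat1 at 28.9, with none called at repo. Of 6 photoreceptor markers 1 had one in both, norpA at 52.6, with none called at ninaE. Over all protein-coding genes the share with a TSS peak in both was 55.9%. A peak in such a pool gives the mean over the isolated nuclei, in which fewer nuclei of a type and less accessibility per nucleus cannot be told apart, and the part of other cell types in the values below was not tested.

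By this measure each of the 10 clock genes had a TSS peak in both replicates, against 55.9% of all protein-coding genes (7803 of 13968). The median percentile of the 10 genes was 71.2 in replicate 1 and 76.9 in replicate 2, which gave 74.1 ± 4.05 (SD, n = 2). Their median fold enrichment was 3.43 and 3.48, where the median over all genes was 2.80 and 2.66. Their TSS peaks had a median width of 1642 and 1632 bp, against 1270 and 1243 bp over all genes. The genes spanned a wide range, and the order of their mean percentiles ran from cwo through Pdp1, dco, per, cry, vri, sgg and tim to Clk and cyc. Going down this order, the replicate percentiles of neighbours did not overlap between cwo and Pdp1, between dco and per, between cry and vri, and narrowly between vri and sgg, and each other pair of neighbours overlapped. The fold enrichments of cwo and Pdp1 did overlap between replicates, and so did their counting intervals within each replicate. No comparison between groups was possible, so these are levels with the spread of 2 replicates and without a test.

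**Figure D1:**
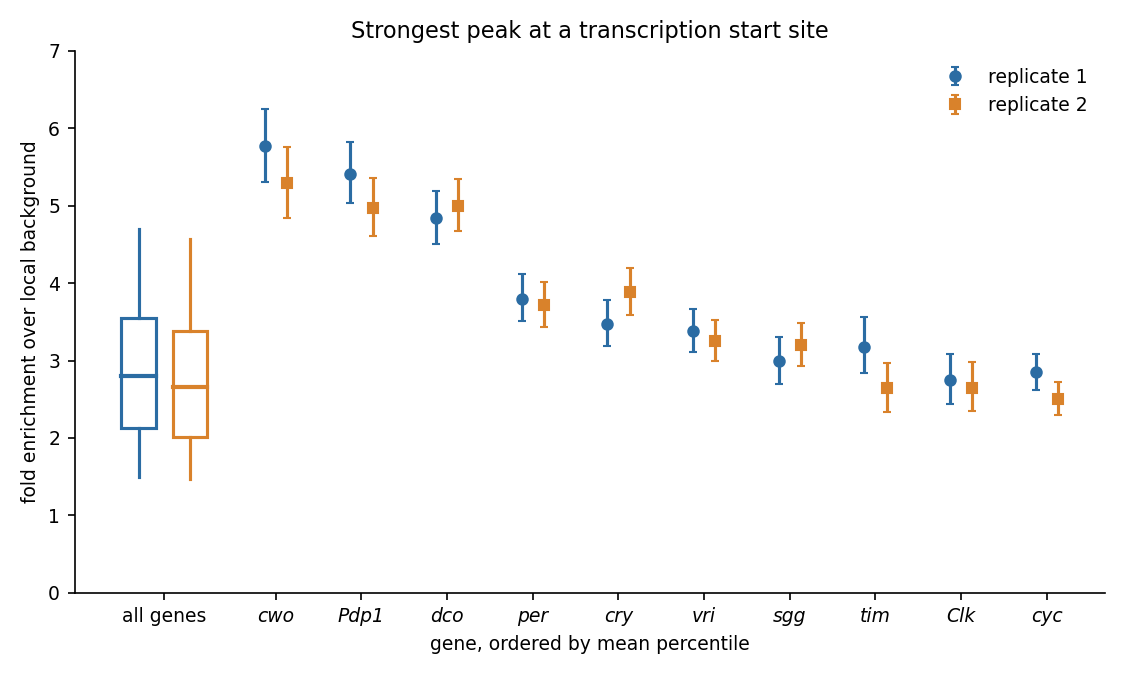
Fold enrichment (linear axis, no unit) of the strongest peak within 500 bp of a TSS for each clock gene in replicate 1 (circles) and replicate 2 (squares), with exact Poisson 95% intervals of the summit pileup, which cover counting error only; boxes give the middle 50% of all genes with a TSS peak, lines in them the medians, and whiskers the range from the 5th to the 95th percentile. cwo, Pdp1 and dco lie above the whiskers in both replicates, while Clk and cyc lie beside the medians of 2.80 and 2.66.

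The activators of the loop had promoters of middling fold enrichment. Clk (FBgn0023076, chr3L:7763233-7775603, minus strand) encodes the activating partner that carries the transcription activation domain. Its TSS peak reached a fold enrichment of 2.75 (95% interval 2.44 to 3.09) in replicate 1 and 2.65 (2.35 to 2.98) in replicate 2, a percentile of 48.8 ± 1.07 (SD, n = 2). Both replicates thus placed Clk at the middle of all genes by fold enrichment, with a narrow peak of 525 and 561 bp. By summit pileup, 288 and 285, it stood at a percentile of 35.2 ± 0.427 (SD, n = 2). This peak lay at the first promoter, from which the transcripts Clk-RA, Clk-RD and Clk-RF start, and its summits lay 25 and 23 bp from the start site. At the second promoter, 8.37 kb downstream, from which Clk-RG and Clk-RH start, no peak was called in either replicate.

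An intronic region of Clk reached the level of its promoter. This region, 3.31 kb downstream of the first start site, reached 2.79 and 2.66, within the counting intervals of the promoter peak in both replicates. A second intronic region at 1.91 kb was weaker, at 1.68 and 1.84. None of these 3 regions held an E-box, and the 2 E-boxes of the Clk locus lay 3065 and 9602 bp from the nearest consensus peak. The site of VRI and PDP1, which act on Clk in the second loop, was searched as TTATGTAA and TTACGTAA on both strands, and these patterns do not overlap with the E-box letters. The Clk locus held 6 such matches, the nearest 455 bp from a consensus peak, and 0 of them lay inside one.

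The partner of CLK, encoded by cyc (FBgn0023094, chr3L:19813770-19815938, minus strand), gave the lowest mean percentile of the 10 genes, although in replicate 1 Clk was lower (48.1 against 51.6). Its TSS peak had a fold enrichment of 2.85 (2.62 to 3.08) in replicate 1 and 2.50 (2.30 to 2.72) in replicate 2, at 47.9 ± 5.24 (SD, n = 2). The rank of cyc depended on the measure. The summit pileup of 603 and 547 stood at a percentile of 83.6 ± 3.25 (SD, n = 2), and the background below it, 211 and 218, was the highest under any TSS peak of the 10 genes. The strongest peak of the locus was not at cyc but 2.94 kb upstream, at the start sites of the neighbours Deaf1 and Fibp, with a fold enrichment of 3.75 and 4.04. Neither peak held an E-box, and the 2 E-boxes of the locus lay 940 and 3274 bp from a consensus peak.

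Of the repressors, per (FBgn0003068, chrX:2685580-2692780, plus strand) had an E-box beside the summits of its promoter peak. Fold enrichment was 3.80 (3.51 to 4.12) in replicate 1 and 3.72 (3.43 to 4.02) in replicate 2, from pileups of 617 and 610, and the percentile was 82.6 ± 0.970 (SD, n = 2). The peak ran over chrX:2684545-2686410 in replicate 1 and chrX:2684556-2686394 in replicate 2, and in both its summit lay upstream of the start site, by 531 and 484 bp. The E-box at chrX:2685050-2685055, printed above, lay 525 bp upstream of the start site and 1 and 41 bp from the summits of replicates 1 and 2. An upstream E-box is the textbook element through which CLK-CYC drives per.

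This was 1 of 11 E-boxes at the per locus, and the other 10 lay outside the consensus peaks. The nearest of them was 40 bp beyond the edge of the promoter peak in an intron, 870 bp downstream of the start site. The same promoter peak also held 1 match to the VRI/PDP1 site, 435 bp downstream of the start site. The locus had 1 further consensus peak, at the start sites of the neighbours Lint-O and Spg7, with a fold enrichment of 2.73 and 2.35.

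The partner repressor tim (FBgn0014396, chr2L:3493986-3508119, minus strand) was less accessible and differed more between replicates. Its TSS peak had a fold enrichment of 3.18 (2.84 to 3.56) in replicate 1 and 2.64 (2.34 to 2.97) in replicate 2, with pileups of 304 and 272. The percentile was 62.9 and 49.3, or 56.1 ± 9.65 (SD, n = 2), and the difference of 13.6 points was larger than that of 94.6% of genes, whose median difference was 3.94. By summit pileup tim stood lower, at a percentile of 35.6 ± 4.99 (SD, n = 2). The peak also had unlike widths, 1283 bp in replicate 1 and 543 bp in replicate 2, where a second peak was called in the same region.

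The tim peak lay at the second promoter of the gene, from which 7 of its 10 transcripts start. The first promoter, 0.515 kb further upstream and used by tim-RM, tim-RP and tim-RR, had only a small peak 109 and 120 bp from its start site, with a fold enrichment of 1.56 (1.32 to 1.83) and 1.39 (1.18 to 1.63). This small peak covered no start site. It also lay within 500 bp of the second promoter and cannot be given to the first alone. The E-box of the promoter peak was 53 to 107 bp from the summits and lay 199 bp upstream of the start site at position 3507218. It also lay 182 bp downstream of the start site at position 3507604. A further region, in an intron 3.03 kb downstream of the most upstream start site, was weak (1.56 and 1.73) and held the other E-box of the locus, so that 2 of 2 E-boxes at tim were inside consensus peaks.

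The clock gene with the highest promoter fold enrichment was cwo (FBgn0259938, chr3R:10388258-10400752, plus strand), the E-box-binding repressor. Fold enrichment was 5.77 (5.31 to 6.25) in replicate 1 and 5.29 (4.84 to 5.76) in replicate 2. These values ranked 83rd of 7997 genes and 118th of 7995, at a percentile of 98.7 ± 0.310 (SD, n = 2). The peak was also broad, 2458 and 2418 bp, wider than 92.9% ± 0.470 (SD, n = 2) of TSS peaks. Its summits lay 32 and 28 bp downstream of the only annotated start site. By summit pileup, 594 and 522, cwo stood lower, at a percentile of 81.5 ± 4.90 (SD, n = 2).

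With 15 E-boxes in 22.5 kb, the cwo locus had more than any other clock gene locus, and 1 of them lay inside a consensus peak. That E-box was at the downstream edge of the promoter peak, 2162 and 2166 bp from the summits, in an intron. The other 14 were 288 to 3869 bp from the nearest consensus peak. No E-box lay within 100 bp of a summit at cwo, whereas 1 did at per and 1 at tim. The remaining 5 regions of the locus were small, with fold enrichments of 1.33 to 1.52, and 3 of them were called in replicate 2 alone.

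**Figure D2:**
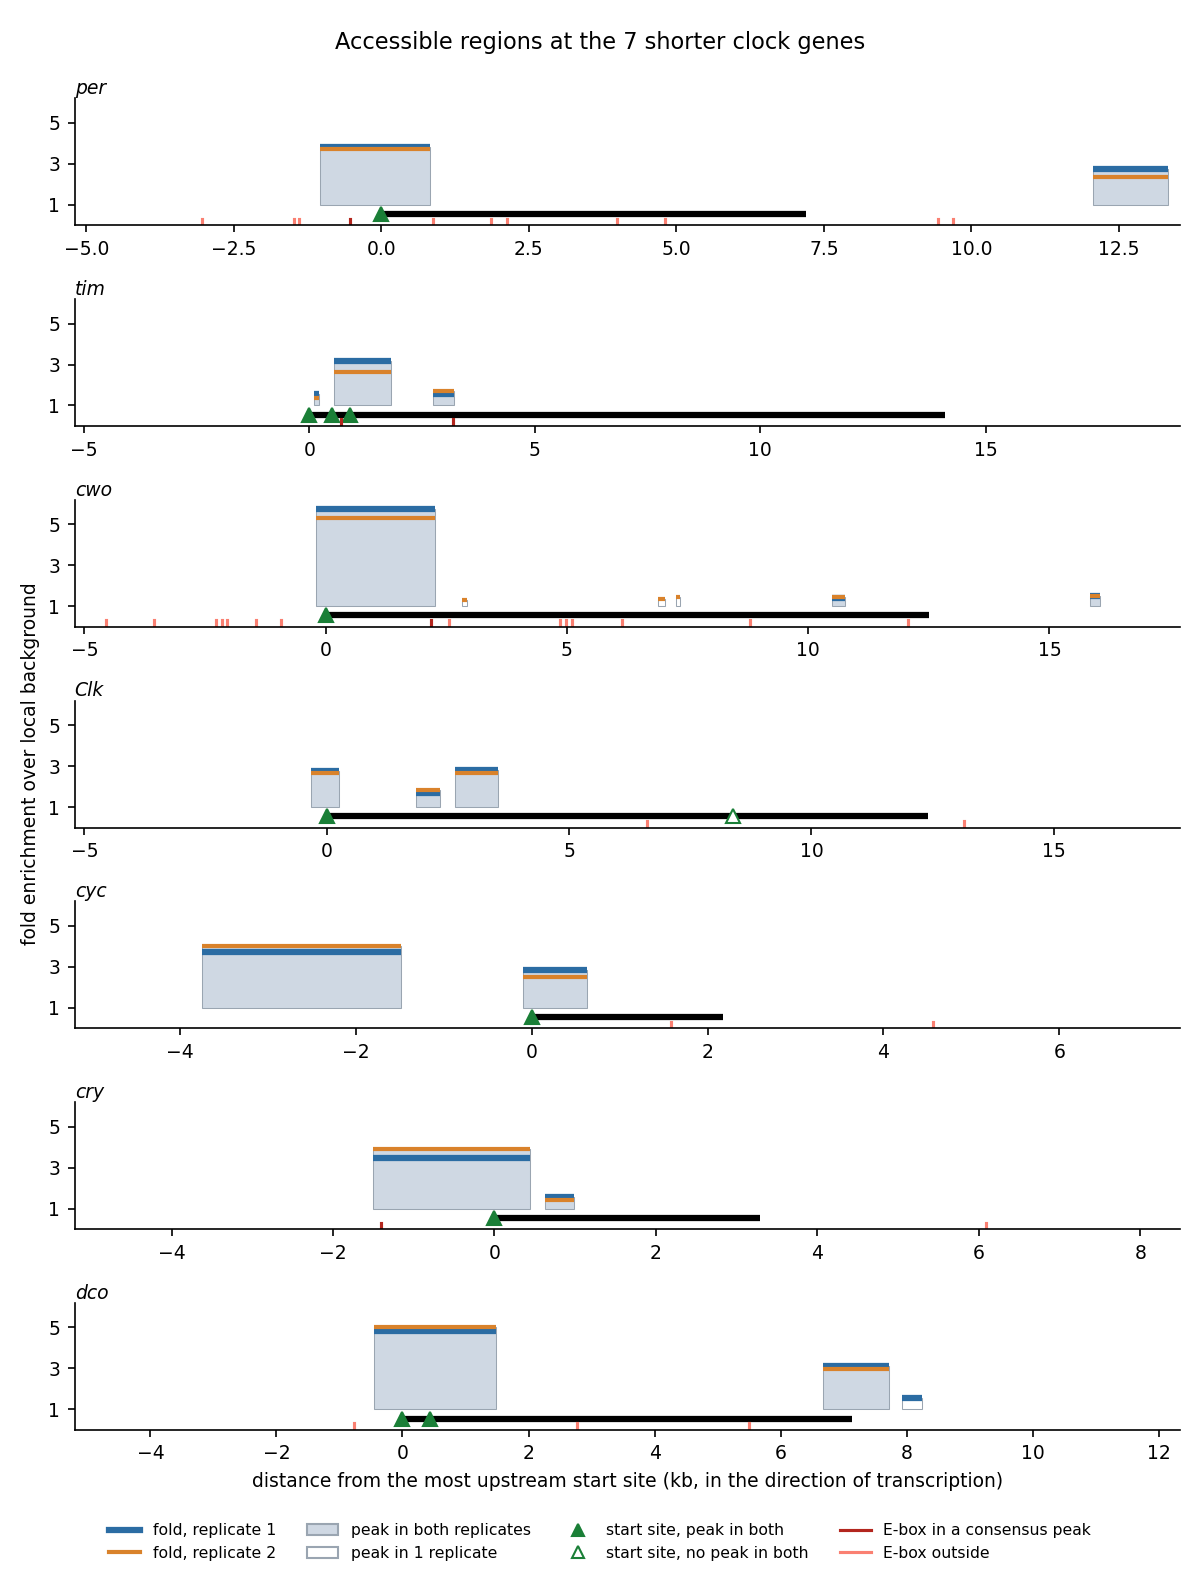
Peaks at the 7 shorter clock genes with 5 kb on each side: fold enrichment (linear axis) against distance from the most upstream TSS (kb, in the direction of transcription), with a grey box for each consensus peak drawn over its merged width, an open box for a region called in 1 replicate, a black bar for the gene, triangles for start sites and ticks for E-boxes. The promoter boxes of per and tim stand over an E-box tick, the 15 ticks of cwo lie outside its promoter box except for 1 at its edge, and the boxes of Clk and cyc stand over none.

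The second loop held the gene with the most E-boxes in accessible sequence. Pdp1 (FBgn0016694, chr3L:7811458-7867369, minus strand), a 55.9 kb gene for a PAR-domain bZIP activator of Clk, has 4 promoters. The second promoter, from which 7 of 13 transcripts start, carried the TSS peak, with a fold enrichment of 5.41 (5.03 to 5.82) in replicate 1 and 4.97 (4.61 to 5.36) in replicate 2. Its percentile of 97.8 ± 0.602 (SD, n = 2) was second among the clock genes. The first promoter, of Pdp1-RF and Pdp1-RO, reached 3.40 (3.05 to 3.77) and 3.05 (2.72 to 3.40), and its intervals lay below those of the second promoter in both replicates. No peak was called at the third promoter, of Pdp1-RD and Pdp1-RJ, and at the fourth, of Pdp1-RC and Pdp1-RL, a peak of 1.72 was called in replicate 1 alone.

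Pdp1 had 12 consensus peaks at its locus, the most of the 10 genes, of which 8 were intronic. The strongest of these was 19.5 kb downstream of the first start site, with a fold enrichment of 3.87 and 3.89. Its intervals overlapped those of the first promoter in replicate 1 and lay above them in replicate 2. Between 30.2 and 37.5 kb stood a row of 4 intronic regions whose fold enrichment was lower the further downstream they lay. It was 3.62 and 3.32 at 30.2 kb, 2.18 and 2.27 at 32.0 kb, 1.96 and 1.86 at 33.5 kb, and 1.62 and 1.71 at 37.5 kb. In both replicates the counting intervals of neighbours were apart only between 30.2 and 32.0 kb and overlapped at each later step. Those at 32.0 and 37.5 kb did not overlap. All 4 held an E-box within 100 bp of the mean of the replicates' summits. These E-boxes lay 4007, 2186 and 756 bp upstream of the third promoter and 1802 bp upstream of the fourth, that is, before the start sites at which no peak was called in both replicates. In the strongest of the 4 the E-box was 131 and 55 bp from the summits of replicates 1 and 2, and in the weakest 21 and 6 bp. The remaining intronic regions had fold enrichments of 2.51 and 2.49 at 3.20 kb, 1.62 and 1.84 at 10.9 kb, and 1.36 and 1.41 at 25.8 kb. A region in an exon at 41.0 kb reached 2.69 and 2.49, and one at the start site of the downstream neighbour CG32369 reached 3.70 and 3.55.

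In all, 8 of the 14 E-boxes of the Pdp1 locus (57.1%) were inside consensus peaks. The other 4 were 2 at the first promoter (18 and 24 bp from the summits for one, 337 and 331 bp for the other), 1 at the second promoter and 1 in an intronic region at 3.20 kb. E-boxes were present in 7 of the 12 consensus peaks (58.3%), at 0.767 per kb of accessible sequence, where all consensus peaks of the genome had 0.176 per kb.

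The repressor of Clk, vri (FBgn0016076, chr2L:5288944-5311223, plus strand), encodes a bZIP protein and has 3 promoters. The third promoter, of vri-RA, vri-RD and vri-RF, carried the TSS peak, with a fold enrichment of 3.38 (3.11 to 3.67) in replicate 1 and 3.25 (2.99 to 3.52) in replicate 2, at a percentile of 70.1 ± 0.729 (SD, n = 2). The summits lay 981 and 977 bp downstream of the start site, in an intron, in a peak of 1899 and 1890 bp that also covered the start site. The first promoter, of vri-RE, had a small peak of 1.67 and 1.64, and the second, of vri-RC, had none in either replicate. The small peak also lay within 500 bp of a start site of the long noncoding RNA CR44743 and cannot be given to vri alone.

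The vri locus had 7 consensus peaks and no region called in 1 replicate alone. The strongest was at the start site of the downstream neighbour CG14024, with a fold enrichment of 4.69 and 4.62. Upstream of vri, a region at the start sites of 2 long noncoding RNAs reached 3.21 and 3.16. Intronic regions at 4.21 and 12.5 kb had fold enrichments of 2.75 and 2.88, and of 2.12 and 2.08. An intronic region 14.5 kb downstream of the first start site, with a fold enrichment of 1.80 and 1.49, held an E-box 47 and 86 bp from the summits and 2293 bp upstream of the third promoter. The other 3 E-boxes of the locus followed between this region and the third promoter, 264 to 543 bp from the nearest consensus peak. All 4 E-boxes of vri therefore lay upstream of the promoter that carried the TSS peak, and 1 of them in accessible sequence.

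Light reaches the loop through cry (FBgn0025680, chr3R:19212154-19215442, plus strand). Its TSS peak had a fold enrichment of 3.47 (3.19 to 3.78) in replicate 1 and 3.89 (3.59 to 4.20) in replicate 2, and in both its summit lay 524 bp upstream of the start site. The percentile was 72.9 and 86.8, giving 79.9 ± 9.88 (SD, n = 2), a difference of 14.0 points where the median gene's was 3.94. Here replicate 2 was higher, whereas at tim replicate 1 was higher. The start site of the long noncoding RNA CR46393 lay in the same region, so the peak cannot be given to cry alone. An E-box at the far edge of the peak lay 1403 bp upstream of the start site and 879 bp from both summits. An intronic region 0.858 kb downstream of the start site was weak, at 1.55 and 1.40.

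Of the kinase genes, dco (FBgn0002413, chr3R:31054085-31061210, minus strand), for casein kinase 1, was among the most accessible and sgg, for the fly's glycogen synthase kinase 3, was spread over many promoters. The TSS peak of dco had a fold enrichment of 4.84 (4.51 to 5.19) in replicate 1 and 5.0 (4.67 to 5.35) in replicate 2, and its pileups of 784 and 833 were the highest of the 10 genes. Its percentile was 96.7 ± 1.10 (SD, n = 2). The other consensus peak of the locus, at the start site of the neighbour Chchd3, reached 3.10 and 2.97. The 3 E-boxes of the dco locus all lay outside consensus peaks, the nearest by 304 bp, 761 bp upstream of the start site.

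The 19 transcripts of sgg (FBgn0003371, chrX:2633952-2679553, plus strand) start from 8 promoters, of which 5 had a peak in both replicates. Few genes have so many annotated promoters, and of the 102 protein-coding genes with at least 5, at least 5 had a peak in both replicates in 22.5% (23 of 102). The first reached 2.24 and 2.27, the second 2.88 and 3.20, the fourth 2.99 and 2.82, the sixth 2.24 and 2.17, and the seventh 1.79 and 1.77 in replicates 1 and 2. No peak was called at promoters 3, 5 and 8. An intronic region at 32.0 kb, at no annotated start site, had 1.75 and 1.67. A region of 70 bp at 17.9 kb, called in replicate 2 alone at 1.41, held an E-box 20 bp from its summit and was not among the consensus peaks.

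The strongest promoter of sgg was the fourth in replicate 1 and the second in replicate 2, with overlapping intervals in each replicate, and the percentile of 56.7 and 69.4 thus compares different peaks, giving 63.0 ± 8.93 (SD, n = 2). The peak given to the second promoter ended 81 and 92 bp before its start site. It held an E-box 67 and 117 bp from the summits and 1136 bp upstream of that start site, and a second E-box, 61 bp upstream of the start site, lay 15 bp beyond its edge. The sgg gene lies upstream of per on the X chromosome, so that the promoter peak of per also falls within 5 kb of the end of sgg, and it was counted once in the sums over the genes.

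**Figure D3:**
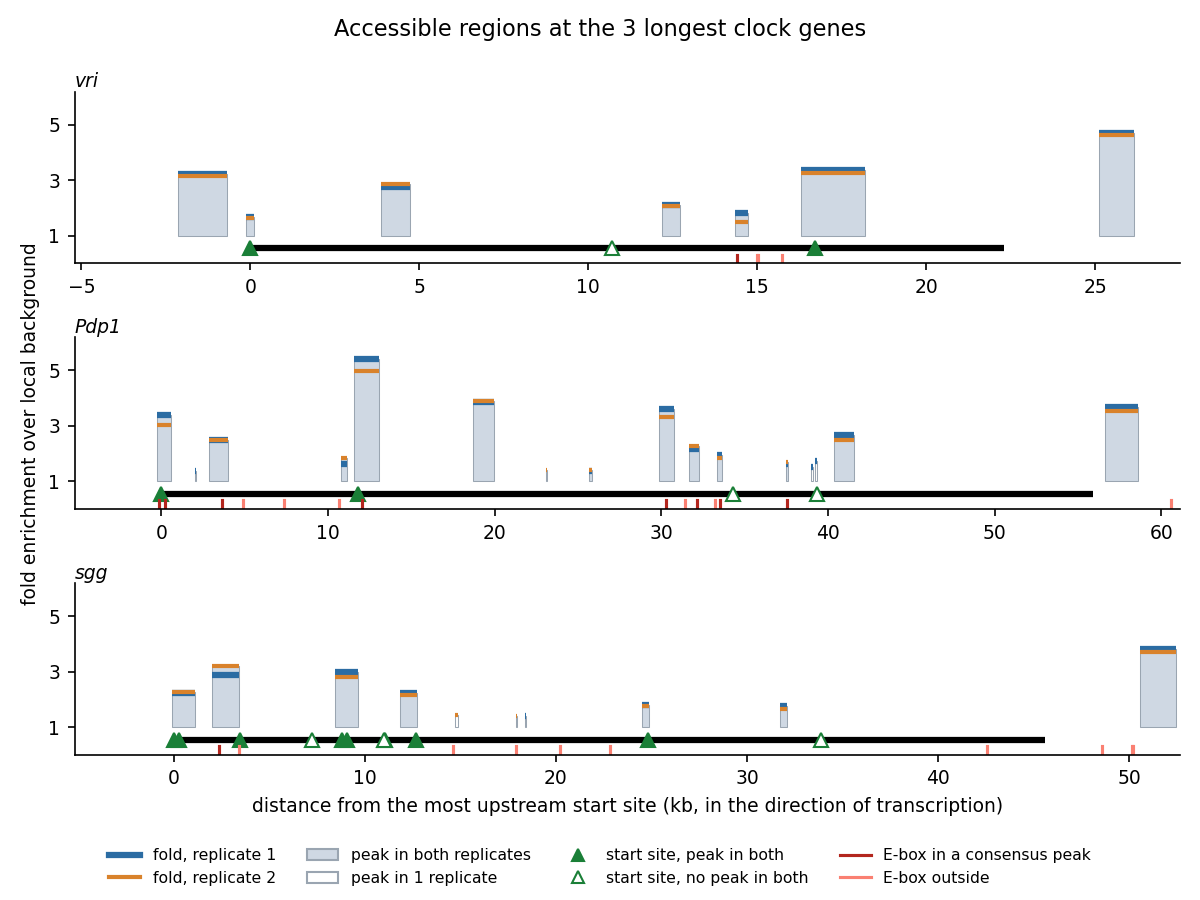
Peaks at vri, Pdp1 and sgg, drawn as in the map of the shorter genes: fold enrichment (linear axis) against distance from the most upstream TSS (kb). In Pdp1 the 4 regions from 30.2 to 37.5 kb each stand over an E-box tick and the open triangles of promoters 3 and 4 have no grey box, and in sgg 5 of 8 promoters carry a grey box.

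Taking the alternative promoters together, start sites within 500 bp of each other were joined into 1 promoter, and the 10 genes then had 24. Of these, 17 had a peak in both replicates, against 53.3% of the promoters of all protein-coding genes (9161 of 17177). Of the 5 clock genes with several promoters, tim, vri, Pdp1 and sgg had at least 2 with a peak in both, against 49.5% of all genes with several promoters (1042 of 2106), and Clk had 1. That share was not matched for the number of promoters, of which Pdp1 had 4 and sgg 8. It was taken over all such genes, with or without an accessible promoter. Where a gene had several accessible promoters, the most upstream one was not the strongest in any of tim, vri, Pdp1 and sgg. In each of the 4 the intervals of the most upstream and the strongest promoter did not overlap in either replicate. How often this order occurs among all genes with several accessible promoters was not counted, so it cannot be called particular to clock genes. At tim the order also rests on the joining limit of 500 bp, since its promoters lie 0.515 kb apart. No larger limit was tried. Where a peak had to cover a start site, the first promoter of tim had none.

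**Figure D4:**
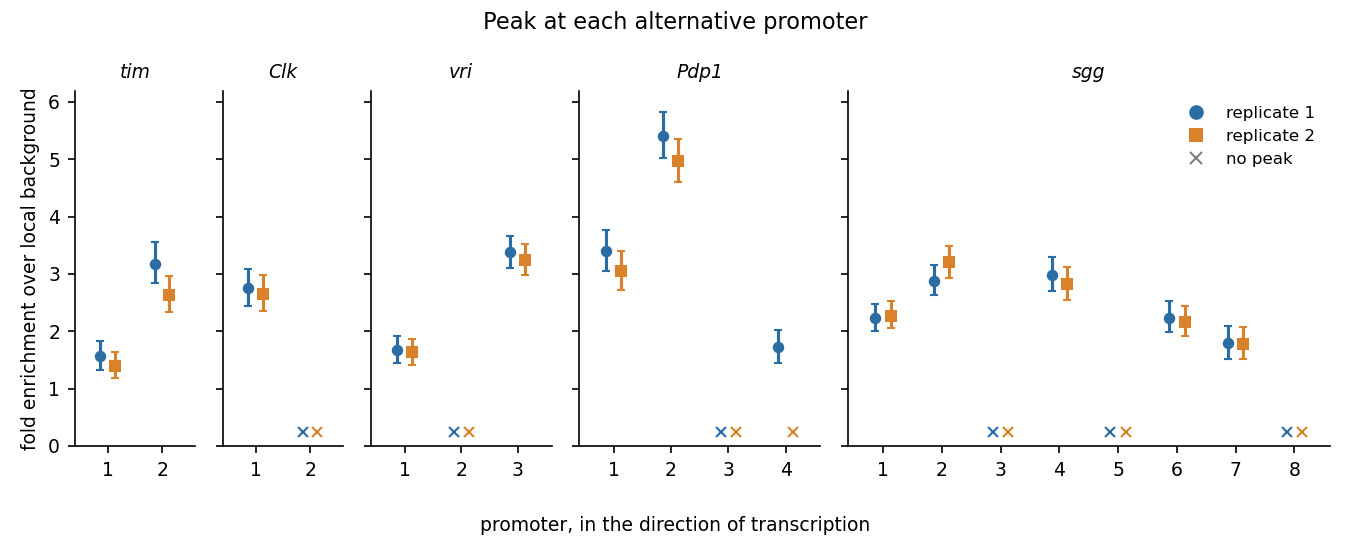
Fold enrichment (linear axis) of the strongest peak within 500 bp of each alternative promoter of the 5 clock genes with several, numbered in the direction of transcription, for replicate 1 (circles) and replicate 2 (squares) with exact Poisson 95% intervals; crosses near 0 mark promoters with no peak and are not values. The second promoter of tim (3.18 and 2.64), the third of vri (3.38 and 3.25) and the second of Pdp1 (5.41 and 4.97) stand above the first of the same gene.

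The 10 loci with 5 kb on each side held 53 merged regions, of which 42 were consensus peaks, 5 were called in replicate 1 alone and 6 in replicate 2 alone. The strongest region called in 1 replicate was the one at the fourth promoter of Pdp1, at 1.72. Of the 42 consensus peaks, 17 were at a promoter of the clock gene itself, 6 at a start site of a neighbour, 16 in introns, 2 in exons and 1 downstream. Among the 1020 protein-coding genes of 20 kb or more, the median was 0.925 consensus peaks per 10 kb of gene. vri had 2.24 per 10 kb (5 peaks), at a percentile of 94.9, Pdp1 had 1.97 (11 peaks), at 90.6, and sgg had 1.32 (6 peaks), at 67.7.

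E-boxes were found within 100 bp of the summit in 9 of the 42 consensus peaks (21.4%), against the 4.34% of all consensus peaks given above. Anywhere in the region they were found in 14 of 42 (33.3%), against 16.2% (1896 of 11705). Accessible sequence at the clock genes held 0.371 E-boxes per kb, against 0.176 in all consensus peaks. The loci as a whole also held more E-boxes for their length, 62 in 279 kb, than the genome, 16785 in 137548 kb. The higher density was therefore not confined to accessible sequence. Pdp1 carried much of the excess in peaks: without it, 4 of 30 peaks (13.3%) had an E-box near the summit, 7 of 30 (23.3%) had one anywhere, and the density was 0.233 per kb.

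Counted from the E-boxes, 15 of 62 at the loci (24.2%) were inside consensus peaks, against 12.8% of the E-boxes of the genome (2141 of 16785). The consensus peaks covered 14.1% of the locus sequence and 8.83% of the genome. Leaving out Pdp1, 7 of 48 E-boxes (14.6%) were inside, so that the share at the other 9 genes was near the genome's. These loci were chosen as clock genes, of which several are known CLK-CYC targets through E-boxes, and the counts are a description without a test.

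Genes also differed in whether the TSS peak itself held an E-box. It did so in both replicates at per, tim, cwo, Pdp1 and cry, 5 of 10, against 18.0% of the genes whose TSS peak was called in both (1403 of 7803), in replicate 2 alone at sgg, and in neither at Clk, cyc, vri and dco. These shares were not adjusted for width, and the clock gene TSS peaks were wider by median (1642 and 1632 bp against 1270 and 1243 bp). At cwo and cry the E-box lay at the edge of the peak. At sgg the TSS peak was that of the fourth promoter in replicate 1, and the peak of the second promoter held its E-box in both replicates.

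**Figure D5:**
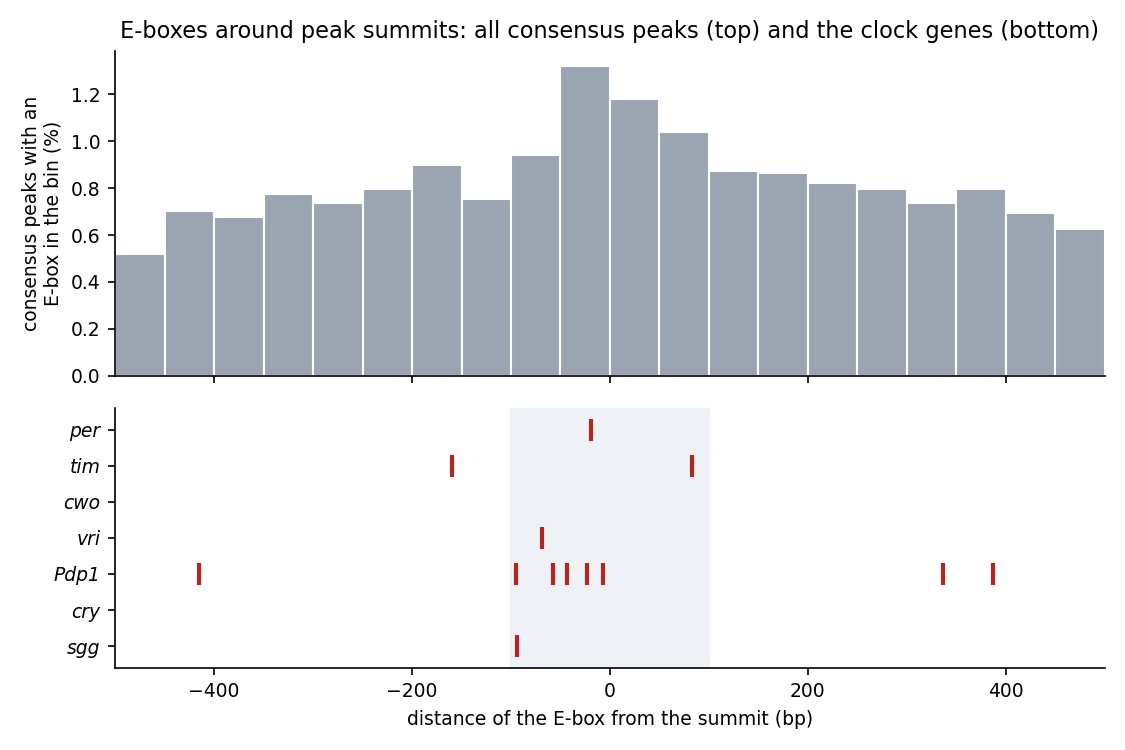
Top, percent of all 11705 consensus peaks with an E-box centred in each 50 bp bin, by distance from the mean of the replicates' summits (bp, forward strand); bottom, each E-box inside a consensus peak of a clock gene within 500 bp of the summit, with the window of 100 bp on each side shaded. The bins beside the summit reach 1.32% and 1.18% and those at the edges 0.521% and 0.624%, and 9 clock gene ticks lie in the shaded window, 5 of them in Pdp1.

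The VRI/PDP1 site was rarer near summits. It was within 100 bp of the summit in 0 of the 42 clock gene peaks and in 1.17% of all consensus peaks (137 of 11705), a share so low that 42 peaks would hold less than 1 such match, so the 0 shows no contrast. Anywhere in the region it was found in 8 of 42 (19.0%), against 7.88% (922 of 11705). Of the 37 matches at the loci, 9 (24.3%) were inside consensus peaks, against 9.02% in the genome, and these lay at the loci of per, tim, vri, Pdp1, dco and sgg. The only such match of dco, 1 of 2 at vri and 2 of 3 at Pdp1 were in peaks at a start site of another gene.

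Other genes of the clock pathway had a share and a median close to those of the core genes. A list of 34 such genes held 31 with a TSS peak in both replicates (91.2%), again against 55.9% of all genes, and their median percentile was 73.5. All 12 genes for the modification and degradation of PER and TIM had one, with a median of 82.1, as did the 4 genes for the translation of PER, with 81.0, and the 6 regulators and coactivators of CLK, with 63.9. All 3 genes of light and temperature input had one, with a median of 52.6, and norpA among them is the photoreceptor marker named above. Genes of the output of clock neurons and their excitability had one in 4 of 6, and homologues of clock proteins in 2 of 3. The 3 highest were tai, a coactivator gene of the same bHLH-PAS family as Clk, at 99.7 ± 0.0885 (SD, n = 2), CkIIbeta, the regulatory subunit of casein kinase 2, at 93.3 ± 1.30, and the nuclear receptor gene Hr51 at 90.3 ± 3.26. The 3 without a TSS peak in both replicates were Pdf, the neuropeptide of the ventral clock neurons, the potassium channel gene Ork1 and timeout, a homologue of tim, and no peak was called at any of them in either replicate.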

How the data were processed

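According to the methods, the authors used Trimmomatic 0.39 for trimming and Bowtie2 2.4.1 for alignment to dm6, corrected for the transposase offset, removed duplicates and called peaks in each replicate with MACS2 2.1.2 at a q-value of 0.01, with a minimum length of 50 bp and a maximum gap of 100 bp. The deposited lists give for each peak the fold enrichment, a ratio with a pseudocount of 1, the −log10 of the p-value and q-value, an integer score (not used here) and the summit offset. No control library was named, so the background came from the same library and fold enrichment was ranked only within a replicate. Fold enrichment and p-value together gave the pileup, within 0.0183 (replicate 1) and 0.0221 (replicate 2) of a whole number; read totals were not used. Poisson 95% intervals hold the background fixed.

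Start sites were those of Ensembl release 115, built on the same assembly, and all peaks lay within its chromosome lengths. Peaks sharing at least 1 bp were merged. Motifs were exact matches on both strands, and the consensus summit was the mean of both replicates'. Lsm12, E75 and tim2 were found as Lsm12a, Eip75B and timeout. Named were all 10 clock genes, the 3 highest genes of the pathway list and those without a TSS peak in both. Sequences are the E-boxes within 100 bp of consensus summits, a choice made after their positions were seen. Members and lists were chosen with earlier results of these data known. With 1 group, no test was made. Alternatives covered the ranking measure, windows, thresholds, promoter grouping, flanks and single replicates. Python 3.11.15 with NumPy 2.4.6, SciPy 1.17.1, pandas 2.3.3 and matplotlib 3.10.9 was used, and the steps were tested on simulated data.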

Additional observations from a re-analysis of the deposited data

How the results depend on the processing

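No paired analysis was possible because there was 1 group. All 10 clock genes had a TSS peak in both replicates under each alternative tried for that count, and the counts of promoters, consensus peaks and pathway genes stayed within 1.5 times their values. The median percentile of 74.1 became 80.6 when genes were ranked by −log10 q, 83.3 by summit pileup, 60.2 with the most upstream TSS only and 86.0 among all peaks of a list, and it was 71.2 to 76.9 with 1 replicate left out. With the most upstream TSS only, tim stood at 4.60, vri at 10.9, sgg at 32.8 and Pdp1 at 68.5, since their strongest promoters lie further downstream. By summit pileup cyc stood at 83.4, cwo at 81.3, tim at 35.5 and Clk at 35.2. The share of clock gene peaks with an E-box near the summit, 21.4%, was 23.8% within 250 bp (9.02% of all consensus peaks), 33.3% over the whole region, 24.3% at a −log10 q of at least 5 and 19.0% with either replicate's summit alone. Leaving out the Pdp1 locus, an alternative added after seeing the data, gave 13.3%. The depth limits the smallest peaks: with a lowest pileup of 113 and 120, a promoter without a peak is one at which accessibility was not detectable at this depth.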
